A study of Homo sapiens with 12 samples.

Results

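P-TEFb and the 7SK inhibitory complex were followed here as 10 genes, chosen by exact gene symbol in the expression tables of both cell lines: the kinase gene CDK9, the cyclin genes CCNT1 and CCNT2, the inhibitor genes HEXIM1 and HEXIM2, the 7SK particle genes MEPCE, LARP7 and RN7SK, and the scaffold genes AFF1 and AFF4. Of the 10, 9 matched a row among 23621 gene rows, and all 9 were among the 14251 active genes, those with an FPKM above 1 in at least 1 library. RN7SK matched no row by exact name and is not analysed here. The libraries were made from polyadenylated RNA, and 7SK RNA carries no poly(A) tail, but why no row matched was not tested.

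P-TEFb is a kinase made of CDK9 and a T-type cyclin. It phosphorylates RNA polymerase II and pausing factors, which releases paused polymerase into productive elongation. Much of the cell's P-TEFb is held inactive by HEXIM proteins on the 7SK small nuclear RNA, which MEPCE caps and LARP7 binds and stabilizes, and the freed enzyme works within assemblies such as the super elongation complex, whose scaffolds are AFF1 and AFF4.

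The study asked how THZ1, a covalent inhibitor of CDK7, CDK12 and CDK13, changes transcription in ovarian cancer cells. Untransduced KURAMOCHI (Ku) and COV362 (Cov) cells, both established human ovarian cancer lines, were grown with fetal bovine serum in RPMI (Ku) or DMEM (Cov) and treated for 6 hr with the vehicle DMSO or THZ1 (50 nM or 250 nM). Each line and treatment has 2 replicate libraries, 12 in all. No label says whether replicates were separate cultures, so p-values measure the spread between these libraries, which may be technical. RNA was normalized by cell count and carried ERCC spike-in RNAs, and the values are FPKM, read fragments scaled to transcript length and library size, normalized by the authors to those spike-ins.

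Depth is unknown because the tables hold no counts. Summed FPKM of all genes ran from 1227780 to 1234308 in Ku DMSO libraries and from 607016 to 662890 at 250 nM, and from 1472395 to 1686567 and from 758681 to 764273 in Cov libraries, so most genes were lower after THZ1 on this scale. Fewer mRNA molecules per cell and an uneven spike-in addition or cell count cannot be told apart in these bulk samples, nor can fewer cells of a type and less RNA per cell. Of 8 epithelial and serous ovarian markers, 6 were above 1 FPKM in Ku DMSO libraries (MUC16 and CDH1 were not) and 7 in Cov DMSO libraries (WT1 was not). The 8 summed to between 4646 and 4892 FPKM in Ku DMSO libraries and between 2261 and 2378 FPKM at 250 nM, and to between 3377 and 3777 FPKM and between 1675 and 1940 FPKM in Cov libraries. The 4 leukocyte markers were all under 1 FPKM, with sums from 0.441 to 0.807 over all groups, and the sums of 3 fibroblast markers (1.53 to 12.1) and of 3 endothelial markers (3.44 to 11.8) were highest in DMSO libraries. In DMSO libraries COL1A1, COL3A1, VWF and CDH5 were above 1 FPKM in Ku cells and COL1A1 and CDH5 in Cov cells, and DCN and PECAM1 were under 1 FPKM in both lines. Their part in the results was not tested.

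The 9 genes differ in size and architecture. HEXIM1 (GRCh37 chr17:43225842-43229466) is a single exon of 3.62 kb, and HEXIM2 (chr17:43238067-43247407, 4 exons) lies 8.6 kb downstream on the same strand. MEPCE (chr7:100025945-100031749) and CDK9 (chr9:130547958-130553071) are also compact, with canonical transcripts spanning 4.29 kb and 4.76 kb. LARP7 (chr4:113558233-113578852) spans 20.4 kb, CCNT1 (chr12:49082241-49110781, minus strand) 28.2 kb and CCNT2 (chr2:135675805-135716912) 40.5 kb. The scaffold genes are the longest, with 88.2 kb for AFF4 (chr5:132211087-132299326, minus strand) and 206 kb for AFF1 (chr4:87856154-88062191).

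The 250 bases before the annotated start are shown for 5 genes: the neighbours HEXIM1 and HEXIM2, of which HEXIM2 was called lower at 50 nM in both lines and HEXIM1 in neither, MEPCE, which lost the largest share of its mRNA among the 9 genes at 250 nM, and the cyclin genes CCNT1 and CCNT2, which lay above DMSO at 50 nM in Ku cells. The sequences are RefSeq promoter windows placed on GRCh37 by exact match, and in each the base after the window is the start of the GENCODE canonical transcript. Capitals mark the letters searched for on both strands: TATAAA (the TATA box), CCAAT (the CCAAT box), GGGCGG (the GC box), TGACGTCA (the cAMP response element) and CACGTG (the E-box). No match overlapped another.
HEXIM1, chr17:43225592-43225841, plus strand: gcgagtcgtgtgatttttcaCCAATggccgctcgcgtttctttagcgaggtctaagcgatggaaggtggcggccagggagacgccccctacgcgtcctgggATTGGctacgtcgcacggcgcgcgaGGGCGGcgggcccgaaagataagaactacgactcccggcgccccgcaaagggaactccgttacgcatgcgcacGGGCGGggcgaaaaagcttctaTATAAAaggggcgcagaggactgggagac
HEXIM2, chr17:43238992-43239241, plus strand: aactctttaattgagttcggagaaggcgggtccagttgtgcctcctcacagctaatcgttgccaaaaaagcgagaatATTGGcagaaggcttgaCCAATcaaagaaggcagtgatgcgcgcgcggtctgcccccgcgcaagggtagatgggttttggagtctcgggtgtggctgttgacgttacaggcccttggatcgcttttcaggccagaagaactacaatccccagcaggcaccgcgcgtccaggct
MEPCE, chr7:100027204-100027453, plus strand: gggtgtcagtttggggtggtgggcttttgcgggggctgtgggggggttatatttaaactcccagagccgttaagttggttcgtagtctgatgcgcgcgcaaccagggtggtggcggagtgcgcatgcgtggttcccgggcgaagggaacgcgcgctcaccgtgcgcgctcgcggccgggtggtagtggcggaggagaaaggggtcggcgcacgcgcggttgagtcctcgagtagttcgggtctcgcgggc
CCNT1, chr12:49110491-49110740, minus strand: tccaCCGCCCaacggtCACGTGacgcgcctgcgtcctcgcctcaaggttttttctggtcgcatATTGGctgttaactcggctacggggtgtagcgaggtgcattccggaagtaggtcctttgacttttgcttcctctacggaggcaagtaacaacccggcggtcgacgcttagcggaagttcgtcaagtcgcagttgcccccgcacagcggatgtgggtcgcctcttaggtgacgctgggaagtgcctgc
CCNT2, chr2:135676142-135676391, plus strand: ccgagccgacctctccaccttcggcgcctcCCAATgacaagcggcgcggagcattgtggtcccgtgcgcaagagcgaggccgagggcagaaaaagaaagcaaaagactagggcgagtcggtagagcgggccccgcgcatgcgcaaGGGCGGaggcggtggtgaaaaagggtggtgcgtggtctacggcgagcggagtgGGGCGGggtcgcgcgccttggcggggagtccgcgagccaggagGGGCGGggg

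HEXIM1 was the only one of the 9 genes with TATAAA in this window, starting 29 bases before the start, and the letters are found in 10.7% of 35116 RefSeq promoter windows of this length. HEXIM1 also held 2 CCAAT boxes and 2 GC boxes. HEXIM2 held 2 CCAAT boxes and no GC box, and MEPCE held none of the 5 motifs. CCNT1 held 1 E-box, 1 CCAAT box and 1 GC box, and CCNT2 held 1 CCAAT box and 3 GC boxes. Of the genes not shown, LARP7 had the only cAMP response element (1.65% of all windows) and AFF4 the other E-box (6.34%). The CCAAT box occurs in 32.0% of all windows and the GC box in 42.6%. GC content ran from 55.2% in HEXIM2 to 82.0% in CDK9, beside a median of 58.0% over all windows. These matches are a description of letters and were not tested as binding sites.

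In untreated cells, MEPCE mRNA was the most abundant of the 9 on the FPKM scale, which is per length, and the order of the others differed between lines. In Ku DMSO libraries, MEPCE (65.0 FPKM on average) was followed by AFF4 and CDK9, whose libraries overlapped, then by HEXIM1 and LARP7, which also overlapped, AFF1, the overlapping pair CCNT2 and CCNT1, and HEXIM2 (4.71 FPKM). In Cov DMSO libraries, MEPCE (105 FPKM) was followed by CDK9, LARP7, CCNT1, AFF4 and HEXIM1, of which AFF4 overlapped each of the other two, then CCNT2 and HEXIM2, which overlapped, and AFF1 (6.12 FPKM). The tables of the lines were normalized separately, so levels were not tested between them. No member was at the floor, the shared low value of unexpressed rows, which lay between 0.0783 and 0.119 FPKM.

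**Figure D1:**
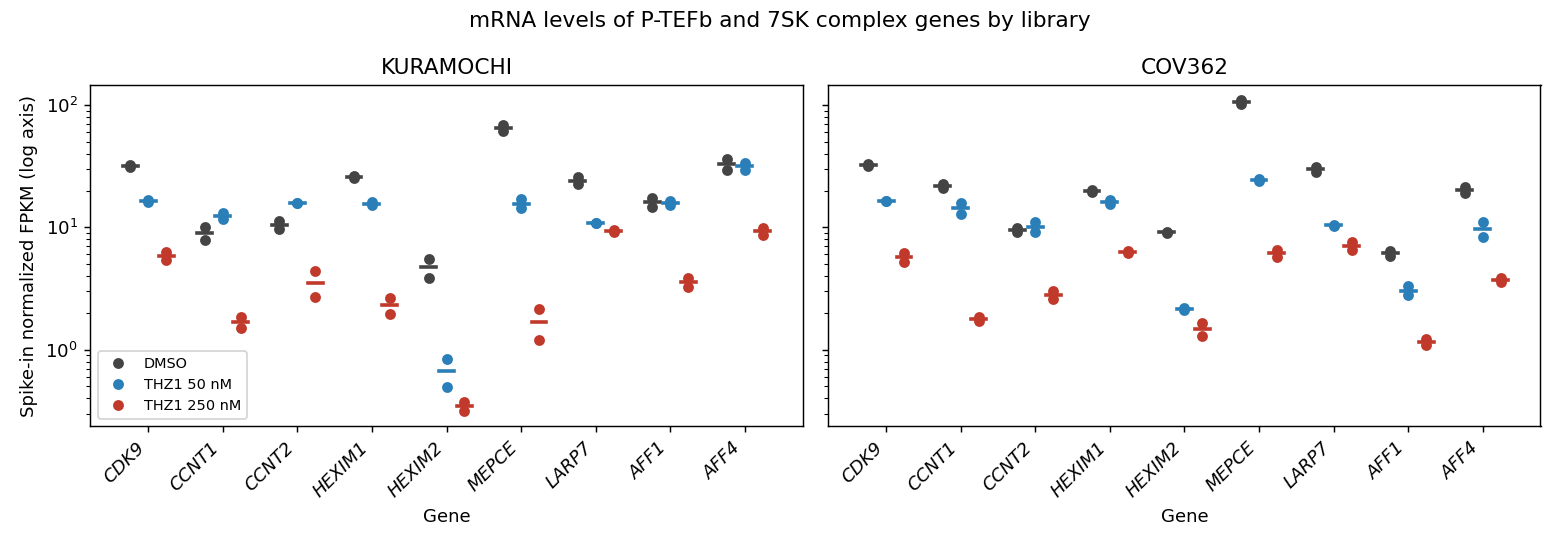
Spike-in normalized FPKM (log axis) of the 9 genes in each library of KURAMOCHI (left) and COV362 (right), coloured by treatment, with points for the 2 replicates and bars for their mean. All 9 genes have both 250 nM libraries under both DMSO libraries in each line, and in KURAMOCHI CCNT1 and CCNT2 at 50 nM sit above DMSO.

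Log2 fold changes are given as differences between group means on the log2(FPKM + 1) scale, which understates the change of low genes, while N-fold values and shares of the DMSO level are ratios of mean FPKM with no pseudocount. They were tested with limma (two-sided) in each line, and a gene was called at a Benjamini-Hochberg adjusted p under 0.001 over the active genes and a log2 fold change beyond 0.5. An exact two-sided permutation test of 2 libraries against 2 cannot give a p below 0.33, so single values rest on the fit across all genes. The 3 comparisons within a line share libraries.

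At 250 nM, all 9 genes were called lower in both lines, and none was called higher. In Ku cells 68.6% of active genes were called lower and 0.0491% higher at this dose, and in Cov cells 84% and 0.105%, so 9 of 9 stands beside a large background. The 9 had medians of -1.91 (Ku) and -2.03 (Cov) on the log2 scale, beside -1.11 and -1.31 over all active genes, and each of the 9 lay below the median of all genes in both lines. This did not hold under every setting: in Ku cells LARP7 was just above the median with a pseudocount of 0.1 (-1.36 against -1.39) and with a minimum of 10 FPKM (-1.28 against -1.29), and CCNT2 without 250 nM replicate 1 (-1.093 against -1.099). In Cov cells CCNT2 was above it with the minimum of 10 FPKM (-1.47 against -1.50). Libraries were also scaled to one another by the median of ratios instead, which removes a shift common to most genes. Under that scaling 4 of 9 were called lower in Ku cells (CDK9, HEXIM1, HEXIM2 and MEPCE) and 3 of 9 in Cov cells (CCNT1, CDK9 and MEPCE). LARP7 in Ku cells then also lay above the median of all genes (0.084 against -0.00088).

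At 50 nM the genes separated. In Ku cells 3 of 9 were called lower (MEPCE, HEXIM2 and LARP7) and 0 higher, where 11.3% of active genes were called lower and 0.0842% higher. In Cov cells 6 of 9 were called lower (the same 3 with CDK9, AFF4 and AFF1) and 0 higher, where 70.5% of active genes were called lower and 0.0772% higher. Their median log2 fold change was -0.69 (Ku) and -0.94 (Cov), beside -0.40 and -0.85 over all active genes, and 5 of 9 lay below that median in each line. With the median-of-ratios scaling 0 of 9 passed in either line, and in Ku cells 0 of 9 passed when any 1 Ku library was left out. The Cov count was 3 without DMSO replicate 2, and 4 without DMSO replicate 1 or with the replicate number as a block.

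Between 50 nM and 250 nM, 7 of 9 genes were called lower in each line, all but HEXIM2 and LARP7, and 0 higher. At this step 36% of active genes were called lower and 0.0421% higher in Ku cells, and 24.4% and 0.0842% in Cov cells. The count of 7 in Ku cells was 1 without 50 nM replicate 1 (HEXIM1) and 2 without 250 nM replicate 1 (HEXIM1 and MEPCE), and 4 without a minimum FPKM. It was 4 in each line with the median-of-ratios scaling, and in Cov cells it was 4 with the replicate number as a block (CCNT1, CDK9, HEXIM1 and MEPCE). Both DMSO libraries above both 50 nM libraries above both 250 nM libraries held for 5 of 9 genes in Ku cells and for 8 of 9 in Cov cells (all but CCNT2), beside 66.7% and 73.8% of active genes. In Ku cells the 4 genes outside this order were CCNT1, CCNT2, AFF1 and AFF4.

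**Figure D2:**
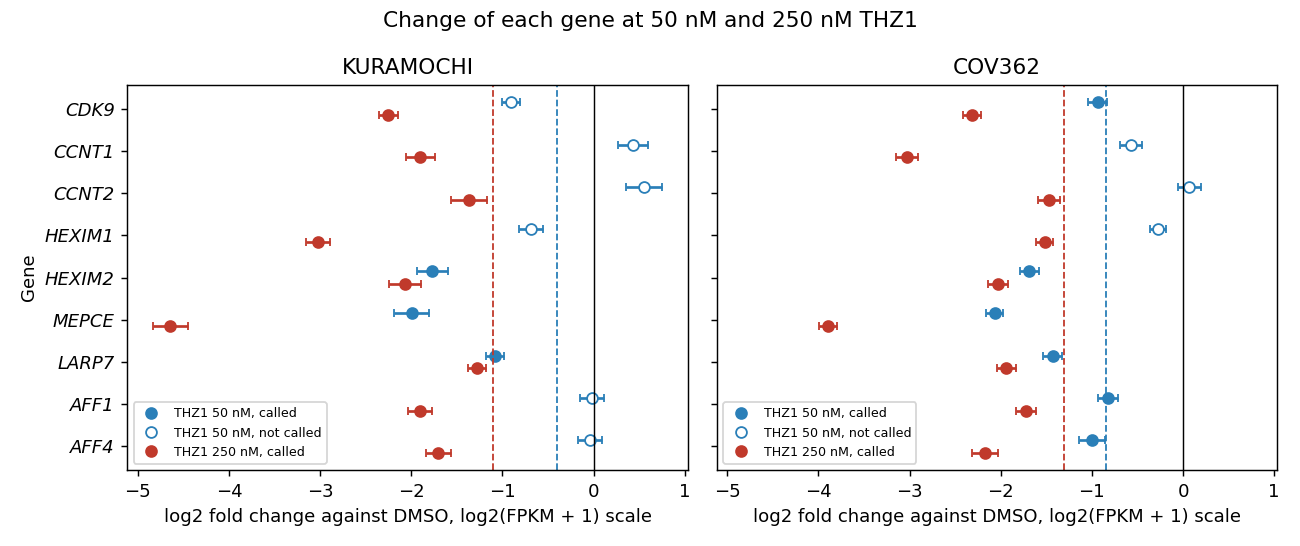
Log2 fold change against DMSO (x axis) of each of the 9 genes at 50 nM (blue) and 250 nM (red) in KURAMOCHI (left) and COV362 (right), with the standard error of the limma fit. Filled points were called, open points were not, and dashed lines mark the median of all active genes, at -0.40 and -1.11 in KURAMOCHI and -0.85 and -1.31 in COV362.

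CDK9, the catalytic subunit, was lower at each dose step in both lines, and fell past the threshold at 250 nM in both. In Ku cells its mRNA was 32.2 and 30.9 FPKM in DMSO, 16.8 and 16.0 FPKM at 50 nM and 5.42 and 6.29 FPKM at 250 nM. Cov cells had 31.6 and 33.0 FPKM, 16.3 and 16.4 FPKM, and 5.22 and 6.18 FPKM. The groups did not overlap in either line, and at 250 nM 18.5% (Ku) and 17.6% (Cov) of the DMSO level was left. By limma with Benjamini-Hochberg adjustment, 250 nM gave a log2 fold change of -2.25 ± 0.10 (SE, n = 2 against 2) with an adjusted p of 1.04e-05 in Ku cells and -2.32 ± 0.10 with 1.08e-06 in Cov cells. At 50 nM it was -0.94 in Cov cells (limma adjusted p = 0.000107), where the median-of-ratios scaling gave 0.049 and the call was lost without DMSO replicate 2 (limma adjusted p = 0.00156). In Ku cells it was -0.90, which missed the threshold with a limma adjusted p of 0.00101 and passed it with a pseudocount of 0.1 (0.000814) or a minimum of 10 FPKM (0.000853). The row of MIR3960, a microRNA gene inside CDK9 on the same strand, was between 0.0740 and 0.142 FPKM in 9 libraries and at 192, 117 and 204 FPKM in Ku 50 nM replicate 2, Ku 250 nM replicate 2 and Cov 50 nM replicate 1. CDK9 in those 3 libraries was 16.0, 6.29 and 16.3 FPKM, beside 16.8, 5.42 and 16.4 FPKM in their replicates.

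The cyclin T genes, whose products activate CDK9, were not called at 50 nM in either line and fell at 250 nM in both. CCNT1 in Ku cells was 10.1 and 7.89 FPKM in DMSO, 13.2 and 11.7 FPKM at 50 nM and 1.50 and 1.83 FPKM at 250 nM. In Cov cells CCNT1 was 21.0 and 22.4 FPKM, 12.8 and 15.8 FPKM, and 1.85 and 1.72 FPKM. Both Ku libraries at 50 nM thus lay above DMSO and both Cov libraries below, with log2 fold changes of 0.43 ± 0.16 (limma adjusted p = 0.0617) and -0.58 ± 0.12 (limma adjusted p = 0.00273) that did not pass the threshold. With the median-of-ratios scaling these were 0.92 and 0.39 (limma adjusted p = 0.00184 and 0.0144), so the Cov direction turned. At 250 nM CCNT1 fell 5.40-fold in Ku cells and 12.1-fold in Cov cells, with log2 fold changes of -1.90 and -3.03 (limma adjusted p = 6.94e-05 and 9.69e-07). The step from 50 nM to 250 nM in Cov cells, -2.45 on the log2 scale, was passed in size by only 0.407% of active genes.

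CCNT2 in Ku cells was 11.2 and 9.78 FPKM in DMSO, 15.9 and 15.9 FPKM at 50 nM and 2.67 and 4.38 FPKM at 250 nM. Cov cells had 9.10 and 9.90 FPKM, 9.12 and 11.0 FPKM, and 3.02 and 2.58 FPKM. At 50 nM its libraries were above DMSO in Ku cells and overlapped DMSO in Cov cells, with log2 fold changes of 0.56 ± 0.20 (limma adjusted p = 0.0530) and 0.07 ± 0.12 (limma adjusted p = 0.604). These placed CCNT2 above 99.0% of active genes in Ku cells and above 98.7% in Cov cells, and CCNT1 was above 98.7% in Ku cells and 76.8% in Cov cells. With the median-of-ratios scaling the values at 50 nM were 1.05 and 0.98 (limma adjusted p = 0.00739 and 0.00170), not called. At 250 nM CCNT2 fell 2.98-fold in Ku cells (log2 fold change -1.37, limma adjusted p = 0.000721) and 3.39-fold in Cov cells (-1.47, 1.62e-05). Both calls at 250 nM were lost with that scaling, which gave -0.13 in Ku cells and -0.12 in Cov cells (limma adjusted p = 0.553 and 0.272). The Ku call did not hold without the minimum FPKM, with only the 2 groups compared, with the replicate number as a block, without the mean-variance trend, or when any Ku library other than 250 nM replicate 2 was left out.

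HEXIM1 and HEXIM2, paralogs whose proteins bind 7SK RNA and inhibit the kinase, passed the threshold at different doses: HEXIM2 at both, HEXIM1 at 250 nM. HEXIM1 in Ku cells was 26.5 and 25.1 FPKM in DMSO, 16.1 and 15.1 FPKM at 50 nM and 1.96 and 2.65 FPKM at 250 nM. HEXIM1 in Cov cells was 19.3 and 20.3 FPKM, 15.6 and 16.8 FPKM, and 6.35 and 6.17 FPKM. At 50 nM its log2 fold changes of -0.69 (Ku) and -0.27 (Cov) did not pass the threshold (limma adjusted p = 0.00637 and 0.0212), and 60.5% and 81.9% of the DMSO level was left. The direction in Cov cells turned with the median-of-ratios scaling, which gave 0.69 (limma adjusted p = 0.00129), beside -0.16 in Ku cells (limma adjusted p = 0.303). At 250 nM HEXIM1 fell 11.2-fold in Ku cells and 3.16-fold in Cov cells, with log2 fold changes of -3.03 ± 0.13 and -1.52 ± 0.09 (limma adjusted p = 9.96e-06 and 3.07e-06). The change was larger in size than that of all but 3.42% of active genes in Ku cells, and in Cov cells 39.0% of active genes had a lower value. Under that scaling the Cov value at 250 nM was -0.041 and the call was lost (limma adjusted p = 0.530). The difference between the lines was not tested, nor was that between HEXIM1 and HEXIM2.

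HEXIM2 was the least abundant member in Ku cells, at 5.54 and 3.87 FPKM in DMSO, 0.841 and 0.493 FPKM at 50 nM and 0.317 and 0.373 FPKM at 250 nM. In Cov cells it was 9.15 and 9.02 FPKM, 2.09 and 2.18 FPKM, and 1.28 and 1.66 FPKM. HEXIM2 fell 7.05-fold in Ku cells and 4.25-fold in Cov cells at 50 nM, with log2 fold changes of -1.77 ± 0.17 and -1.68 ± 0.11 (limma adjusted p = 0.000680 and 2.28e-05). The log2 differences between 50 nM and 250 nM were -0.30 (Ku) and -0.35 (Cov) (limma adjusted p = 0.161 and 0.0265), neither past the threshold, and on the log2(FPKM + 1) scale 85.4% and 82.9% of the change at 250 nM was present at 50 nM. With a pseudocount of 0.1 the differences were -0.750 and -0.520 (limma adjusted p = 0.0528 and 0.0200) and the shares 78.0% and 79.7%, and the Ku difference was -0.151 without 50 nM replicate 1 and -0.453 without 50 nM replicate 2. With the median-of-ratios scaling the differences were -0.010 in Ku cells and 0.027 in Cov cells. The ratio of HEXIM1 to HEXIM2 went from 4.79 and 6.47 in Ku DMSO libraries to 19.1 and 30.6 at 50 nM and to 6.19 and 7.09 at 250 nM. In Cov cells this ratio went from 2.11 and 2.25 to 7.47 and 7.70 and then to 4.95 and 3.72, which did not overlap DMSO.

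MEPCE, the enzyme that caps the end of 7SK RNA, had the largest fall of the 9 genes at 250 nM in both lines. Its mRNA in Ku cells was 68.2 and 61.8 FPKM in DMSO, 16.9 and 14.3 FPKM at 50 nM and 2.17 and 1.20 FPKM at 250 nM. In Cov cells it was 101 and 109 FPKM, 24.6 and 24.0 FPKM, and 5.73 and 6.55 FPKM. MEPCE went from the highest of the 9 in DMSO to a level that overlapped CCNT1 and HEXIM1 at 250 nM in Ku cells, with 24.0% (Ku) and 23.1% (Cov) of the DMSO level left at 50 nM and 2.59% and 5.84% at 250 nM. Against DMSO, 250 nM gave log2 fold changes of -4.64 ± 0.19 (Ku) and -3.89 ± 0.09 (Cov) (limma adjusted p = 9.04e-06 and 8.16e-07), and 0.274% and 0.442% of active genes had a lower value. At 50 nM it was -1.99 ± 0.19 and -2.07 ± 0.09 (limma adjusted p = 0.000664 and 2.13e-05). In Ku cells at 50 nM HEXIM2 kept a smaller share of its DMSO level (14.2%) than MEPCE (24.0%). The annotation holds a further protein-coding gene, ENSG00000289690, that overlaps MEPCE on the same strand over 5786 bases and matched no row of the tables, so reads shared by both genes could not be told apart. ZCWPW1, which overlaps MEPCE on the other strand, was between 0.973 and 3.07 FPKM in all libraries. The library kit keeps strand, but the strand setting of the quantification is not given in the sources used here.

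LARP7, the La-related protein that binds the end of 7SK RNA, was lower at 50 nM in both lines, with further differences at 250 nM that did not pass the threshold. In Ku cells it was 25.6 and 22.6 FPKM in DMSO, 10.9 and 10.8 FPKM at 50 nM and 9.51 and 9.12 FPKM at 250 nM. Cov libraries had 28.5 and 31.1 FPKM, 10.5 and 10.3 FPKM, and 7.61 and 6.49 FPKM. LARP7 fell at 50 nM, with log2 fold changes of -1.08 (Ku) and -1.43 (Cov) (limma adjusted p = 0.000574 and 2.92e-05), and the differences between 50 nM and 250 nM were -0.20 and -0.51 (limma adjusted p = 0.108 and 0.00489). Of the change at 250 nM, 84.1% (Ku) and 73.8% (Cov) was present at 50 nM, beside 40.1% and 40.4% for CDK9 and 42.9% and 53.0% for MEPCE. These shares hold for the spike-in scale: with the median-of-ratios scaling the differences between the doses were 0.627 in Ku cells (limma adjusted p = 0.00134) and 0.015 in Cov cells (limma adjusted p = 0.894). At 250 nM LARP7 had the highest mean of the 9 genes in both lines, overlapping AFF4 in Ku cells and MEPCE in Cov cells, and its log2 fold change of -1.28 in Ku cells was 0.08 with the median-of-ratios scaling.

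AFF1 and AFF4, the scaffolds that bring P-TEFb into the super elongation complex, were not called at 50 nM in Ku cells and fell at 250 nM in both lines. AFF4 in Ku cells was 36.1 and 29.2 FPKM in DMSO, 33.8 and 29.6 FPKM at 50 nM and 8.65 and 9.96 FPKM at 250 nM, and AFF1 was 17.5 and 14.8 FPKM, 16.5 and 15.4 FPKM, and 3.25 and 3.87 FPKM. For both genes the DMSO and 50 nM libraries overlapped, with log2 fold changes of -0.04 ± 0.13 and -0.01 ± 0.13 (limma adjusted p = 0.827 and 0.933). In Cov cells AFF4 was 19.0 and 21.4 FPKM in DMSO, 8.31 and 11.0 FPKM at 50 nM and 3.83 and 3.58 FPKM at 250 nM, and AFF1 was 5.87 and 6.37 FPKM, 2.78 and 3.30 FPKM, and 1.22 and 1.08 FPKM. Here both fell at 50 nM, with log2 fold changes of -0.998 for AFF4 and -0.82 for AFF1 (limma adjusted p = 0.000381 and 0.000267), and with the median-of-ratios scaling AFF4 was at -0.038 and AFF1 at 0.014. Both calls were lost when either Cov DMSO library was left out and with the replicate number as a block (limma adjusted p = 0.00130 for AFF4 and 0.00122 for AFF1), and that of AFF1 also without a minimum FPKM (0.00146). At 250 nM AFF4 fell 3.51-fold (Ku) and 5.44-fold (Cov) and AFF1 4.53-fold and 5.30-fold. The ratio of AFF4 to AFF1 stayed between 2.99 and 3.36 in all Cov libraries and was 1.93 to 2.07 in Ku DMSO and 50 nM libraries and 2.57 and 2.67 at 250 nM.

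Ratios between genes within a library compare the members without the spike-in scale, since a factor common to all genes of a library cancels, although one that depends on the level would not. The summed level of CCNT1 and CCNT2 per CDK9 was 0.663 and 0.573 in Ku DMSO libraries, 1.73 and 1.73 at 50 nM and 0.770 and 0.989 at 250 nM. In Cov cells it was 0.951 and 0.981, 1.34 and 1.63, and 0.935 and 0.696. Cyclin T mRNA per CDK9 mRNA was thus highest at 50 nM in both lines, with no overlap with DMSO. The ratio of HEXIM1 to CDK9 went opposite ways at 250 nM, from 0.822 and 0.813 to 0.362 and 0.421 in Ku cells and from 0.610 and 0.616 to 1.22 and 1.00 in Cov cells. The ratio of MEPCE to LARP7 went from 2.67 and 2.73 in Ku DMSO libraries to 0.228 and 0.131 at 250 nM, and from 3.55 and 3.50 to 0.753 and 1.01 in Cov cells. CCNT2 per CCNT1 went from 1.11 and 1.24 in Ku DMSO libraries to 1.78 and 2.39 at 250 nM, and from 0.434 and 0.442 to 1.63 and 1.50 in Cov cells. With 2 libraries a group these ratios were not tested.

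**Figure D3:**
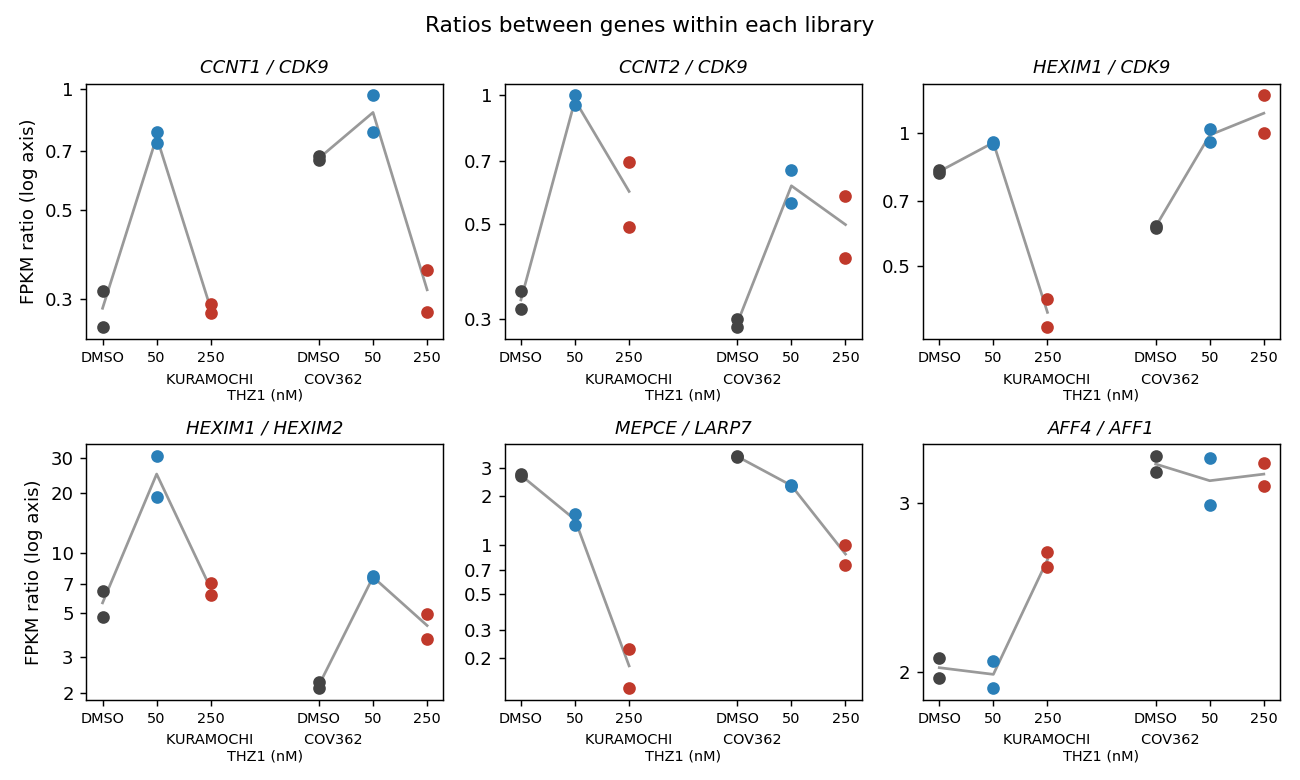
FPKM ratios (log axis) of 6 gene pairs in each library, in DMSO and at 50 nM and 250 nM THZ1 for KURAMOCHI (left of each panel) and COV362 (right), with grey lines through the group means. The group means of CCNT1 and CCNT2 per CDK9 are highest at 50 nM in both lines. For CCNT2 in COV362 the libraries at 50 nM (0.558 and 0.669) and 250 nM (0.579 and 0.417) overlap. HEXIM1 per CDK9 ends at 0.362 and 0.421 in KURAMOCHI and at 1.22 and 1.00 in COV362, and MEPCE per LARP7 steps down with dose.

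Because most genes were lower, the members were also read against the median of all active genes. At 250 nM MEPCE differed from that median by -3.53 (Ku) and -2.59 (Cov) on the log2 scale, CDK9 by -1.14 and -1.01, and HEXIM1 by -1.92 and -0.21. CCNT1 differed by -0.79 and -1.72, and CCNT2 by -0.26 and -0.16. At 50 nM CCNT2 (0.96 in Ku cells and 0.92 in Cov cells), CCNT1 (0.83 and 0.27) and AFF1 (0.38 and 0.03) lay above the median. AFF4 lay above it in Ku cells (0.36) and below it in Cov cells (-0.15). HEXIM1 lay below it in Ku cells (-0.29) and above it in Cov cells (0.58). MEPCE (-1.59 and -1.22), HEXIM2 (-1.37 and -0.83), LARP7 (-0.68 and -0.58) and CDK9 (-0.50 and -0.09) lay below it in both lines.

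Gene length was set beside the changes after the values were seen. Over the 9 members, Spearman's rho between transcript span and log2 fold change in Ku cells was 0.65 (50 nM) and 0.70 (250 nM), and in Cov cells it was 0.23 for both doses. Over 12471 active genes with a span it was 0.10 and 0.01 in Ku cells and -0.07 and -0.09 in Cov cells. These are descriptions across genes of the same libraries, and no p is given.

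Genes whose treated levels followed those of the members were found by the distance between log2 profiles relative to DMSO over the 8 treated libraries, among 11873 genes. Nearest to CDK9 were SAFB (distance 0.388), DCUN1D1 (0.392) and FAM98A (0.445), beside a median distance of 2.26. Nearest to HEXIM1 were OTUD1 (0.587), IRF2BPL (0.770) and IER5 (0.915), beside a median of 2.97. HEXIM1 and these 3 genes each have 1 exon in their canonical transcript, as do 2.31% of the 10600 compared genes with an exon count, which was looked up after the names were seen.

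The partners of P-TEFb were described by lists. At 250 nM, 5 of 6 THZ1 target kinases and their partners (CDK7 with CCNH and MNAT1, CDK12 and CDK13 with CCNK) fell in Ku cells (all but CCNH) and 6 in Cov cells, with median log2 fold changes of -1.96 and -2.05, and the largest fall was that of CDK7 in Ku cells (-2.44) and CDK13 in Cov cells (-2.65). All 7 pausing factors and P-TEFb substrates were called lower in both lines (medians -1.14 and -1.15). NELFA, a subunit of the pausing factor NELF, led them at -2.74 and -2.59. Of 13 factors that bind or open the 7SK particle, 12 fell in Ku cells and 13 in Cov cells (medians -1.16 and -1.37). JMJD6, which has been linked to the release of P-TEFb, led them at -3.38 and -2.87, and SSB, the La protein, was not called in Ku cells (-0.51). Of 7 active super elongation complex partners, 4 fell in Ku cells and 7 in Cov cells (medians -1.05 and -1.22), and MLLT3 and AFF2 were under the minimum FPKM. The backgrounds of 68.6% and 84% apply to these counts. With the median-of-ratios scaling, chosen for the lists after seeing the data, the medians of the pausing factors (0.29 and 0.43) and of the 7SK particle factors (0.28 and 0.24) were above 0, while those of the THZ1 targets (-0.65 and -0.57) and the super elongation partners (-0.05 and -0.27) stayed below it.

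At 50 nM in Ku cells, the lists had 0 of 6 THZ1 targets and partners, 0 of 7 pausing factors and substrates, 2 of 13 7SK particle factors and 1 of 7 super elongation partners called lower, beside 11.3% of active genes. POLR2A, the largest subunit of RNA polymerase II, was called higher in Ku cells at 0.80 on the log2 scale, as were 0.0842% of active genes. Its limma adjusted p of 0.000993 was close to the threshold of 0.001, and the call was not followed under other settings. It was at 0.08 in Cov cells (limma adjusted p = 0.456). At 250 nM POLR2A fell in both lines, by less than the median of all genes: -0.92 against -1.11 (Ku) and -1.24 against -1.31 (Cov). In Cov cells the same lists had 4 of 6, 6 of 7, 11 of 13 and 5 of 7 called lower, beside 70.5%.

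**Figure D4:**
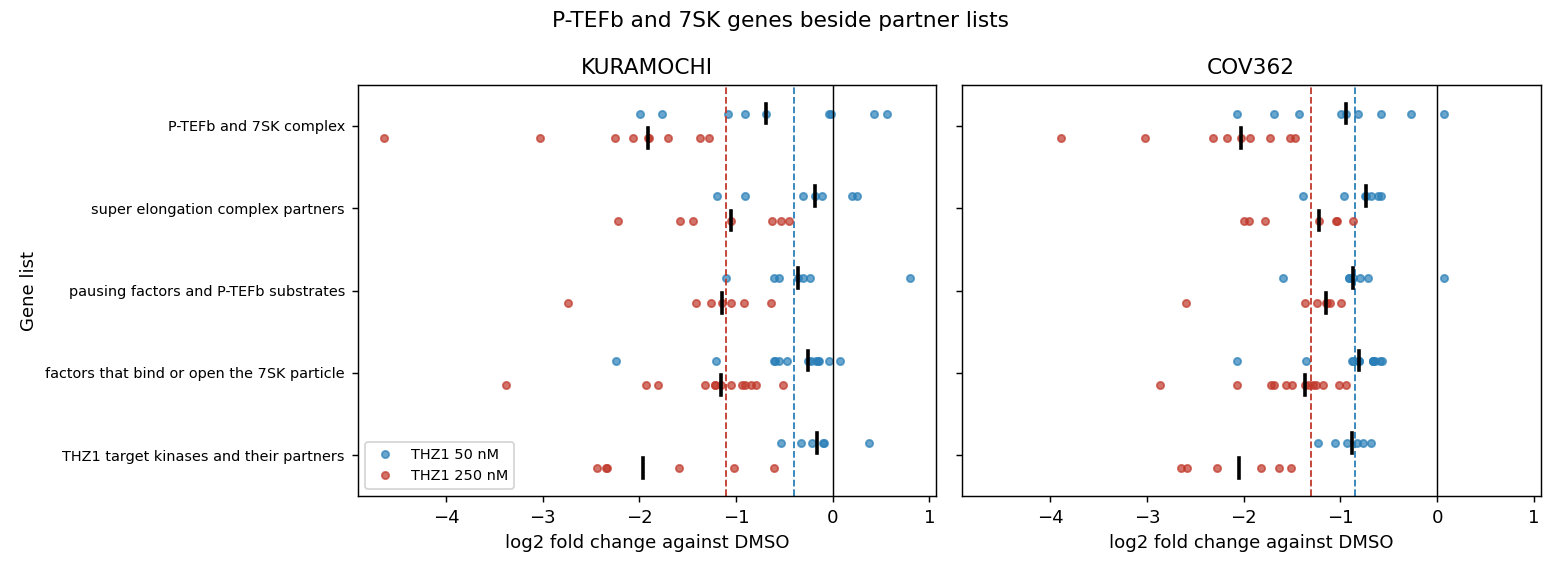
Log2 fold change against DMSO (x axis) of the P-TEFb and 7SK genes and of 4 partner lists at 50 nM (blue) and 250 nM (red) in KURAMOCHI (left) and COV362 (right), with 1 point per gene, black bars for list medians and dashed lines for the median of all active genes. At 250 nM the medians of the members, of the THZ1 target list and, by less than 0.1, of the 7SK particle factors lie left of the median of all genes in both lines.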

How the data were processed

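Spike-in normalized FPKM were deposited by the authors as 1 table per cell line. Per the labels and methods, reads were aligned to hg19 with HISAT and quantified with Cufflinks tools (Cuffnorm), and FPKM were normalized to ERCC RNAs. The 2 tables hold 23713 rows, of which 92 are ERCC rows and were left out, and every value column was used (0 left out). Depth is unknown, so no counting interval is given.

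FPKM above 1 in at least 1 of 12 libraries defined active genes. Each line was fitted separately with limma 3.58.1 in R 4.3.3 on log2(FPKM + 1), with 3 groups of 2 libraries, a mean-variance trend and Benjamini-Hochberg adjustment over 14251 genes. The fit was run on simulated data in which most genes did not change, so it was not checked under a shift of most genes. Lines were not tested against each other because the tables were normalized separately. The 10 members and the lists were chosen with earlier results of these data known. Genes outside the lists were named by the smallest profile distance to CDK9 and HEXIM1, and in each list by the largest and smallest change at 250 nM; POLR2A was named after its values were seen. A further partner list is not reported here. Gene positions come from GENCODE lifted to GRCh37, and promoter windows from RefSeq (GRCh38 table), matched by sequence. Alternatives were a pseudocount of 0.1, no minimum or a minimum of 10 FPKM, median-of-ratios scaling, 2 groups only, a replicate block, no trend, a looser (0.05) adjusted p, a larger fold change (1 on the log2 scale), and each library left out.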

Additional observations from a re-analysis of the deposited data

Results flagged for a closer look

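CCNT1 at 50 nM was singled out because the lines moved in opposite directions: both Ku libraries lay above both DMSO libraries (log2 fold change 0.43) and both Cov libraries lay below both DMSO libraries (-0.58). Neither passed the limma threshold, and the difference between the lines was not tested, since their tables were normalized separately. With the median-of-ratios scaling the Cov value was 0.39.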

How the results depend on the processing

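With the median-of-ratios scaling, which moved the median log2 fold change of all genes from -0.40 to 0.02 (Ku, 50 nM), -1.11 to -0.00088 (Ku, 250 nM), -0.85 to 0.0020 (Cov, 50 nM) and -1.31 to 0.01 (Cov, 250 nM), the counts against DMSO were 0 and 4 in Ku cells and 0 and 3 in Cov cells, and 4 in each line between the doses. Values that changed sign under it were AFF1 (0.50) and AFF4 (0.50) at 50 nM in Ku cells, LARP7 at 250 nM against DMSO (0.084) and against 50 nM (0.627) in Ku cells, AFF1 (0.014), CCNT1 (0.39), CDK9 (0.049) and HEXIM1 (0.69) at 50 nM in Cov cells, and HEXIM2 (0.027) and LARP7 (0.015) between the doses in Cov cells. In Ku cells at 50 nM the count of 3 became 0 without a minimum FPKM, 0 with only the 2 groups, 1 without the trend and 5 at an adjusted p under 0.05, and between the doses the count of 7 became 4 without a minimum FPKM. In Cov cells at 50 nM the count of 6 became 3 at a log2 fold change beyond 1.

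Leaving out each library in turn gave 0 in every case for Ku at 50 nM, 8 to 9 for Ku at 250 nM, 1 to 7 for Ku between the doses (1 without 50 nM replicate 1 and 2 without 250 nM replicate 1), 3 to 7 for Cov at 50 nM (3 without DMSO replicate 2), 9 in every case for Cov at 250 nM and 5 to 7 for Cov between the doses. The lone remaining library is then assumed to vary like the other groups. Signs changed for AFF1 (-0.127 to 0.098 over the left-out libraries) and AFF4 (-0.186 to 0.111) at 50 nM in Ku cells, without DMSO replicate 1 or 50 nM replicate 2, and for CCNT2 (-0.052 to 0.193) at 50 nM in Cov cells, without 50 nM replicate 2. No member was called higher under any setting. Same-numbered libraries did not deviate together (correlations from -0.0703 to 0.0282), so the numbers were not taken to pair them. With the replicate number as a block the Cov count between the doses was 4 and the Cov count at 50 nM was 4. Apart from the constructions named, the causes of these shifts were not tested.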
